A study of Mus musculus with 16 samples.

Results

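The 43 genes described here are interferon-stimulated genes of the mouse and the large GTPases that interferons induce. They were chosen as a list of gene symbols, without a threshold on any value but with earlier results of these data known. All 43 were found among the 31274 features of the deposited expression table. A mean of at least 1 FPKM (fragments scaled to transcript length and to the size of the library) over the 16 libraries was required for testing, and 42 of the 43 passed, as did 15408 features in all. The member that did not pass was Oas3, and its levels are given with those of its family.

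Interferons are secreted proteins that bind receptors on the cell surface and signal through Janus kinases to STAT proteins. Type I interferons assemble a complex that holds STAT2 and IRF9 on a DNA element called the interferon-stimulated response element (ISRE), whereas interferon gamma acts through gamma-activated sites (GAS). The genes switched on encode antiviral effectors, RNA sensors, antigen-presentation proteins, and 2 families of GTPases that attack the vacuoles of intracellular microbes. In the uterus, interferon-stimulated genes are known as part of the response to a conceptus in ruminants and as part of the defence of the lining in mice, and progesterone, acting through its nuclear receptor Pgr, is known to restrain immune responses there.

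Whole uteri were profiled by RNA-seq in 4 groups of 4 libraries: PgrcrePgrBLsL/+ mice (PRB) given progesterone (P4), PRB mice given oil, PgrcrePgrALsL/+ mice (PRA) given P4, and PRA mice given oil. All were females ovariectomized 2 weeks earlier and collected 6 h after treatment, housed to 8 weeks of age, and all carried the Pgrcre driver, in which Cre follows the cells that express Pgr, with 1 copy of an allele for isoform B or isoform A of the progesterone receptor. The series title speaks of constitutive expression in the uterine epithelium, and the driver is not particular to epithelium. No mice without such an allele entered the comparisons, so each strain was compared with its own oil group and with the other strain. The treatment field of the labels speaks instead of mated females at day 4 of pregnancy, against the design text and the title of each sample, which the groups follow. The libraries are labelled biological replicates, and their run identifiers run along row A for PRA and row B for PRB, with oil before P4 in each, so position in the run cannot be told apart from strain or treatment. Pgr itself, which the allele of either isoform would feed, averaged 112 ± 22.3 FPKM in PRB uteri with P4, 83.5 ± 4.49 FPKM in PRB uteri with oil, 73.9 ± 1.803 FPKM in PRA uteri with P4 and 64.9 ± 5.52 FPKM in PRA uteri with oil, and these values do not separate the isoforms. Every PRB library lay above every PRA library for Pgr under either treatment. The strain difference on the log2(FPKM + 1) scale passed with P4 (0.57, limma adjusted p = 0.0057) and not with oil (0.36, adjusted p = 0.59). Level and isoform of Pgr thus cannot be told apart between the strains. PRB P4 replicate 3 had 78.5 FPKM of Pgr, below all 4 PRB oil libraries (79.4 to 87.6 FPKM), against 121 to 126 FPKM in the other 3 of its group. The uterine markers Hoxa10, Hoxa11, Esr1, Myh11 and Krt18 were expressed in every library. Depth, estimated from how finely the lowest values were spaced, came to 60.3 M to 73.2 M fragments per library; at the lowest of these, a 2 kb transcript at 1 FPKM would be read from about 121 fragments.

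Several libraries stood apart for these genes, which bears on every comparison below. Among the 4 PRB uteri with oil, replicate 4 held the highest value of 39 of the 43 members and replicate 3 held the other 4. Among the 4 PRA uteri with oil, replicate 4 was highest for 36 of 43. Over all features tested, those 3 libraries were the highest of their group for 30.8%, 17.1% and 28.4% of features. The median member lay 0.53, 0.22 and 0.24 above its group mean on the log2(FPKM + 1) scale in PRB oil replicate 4, PRB oil replicate 3 and PRA oil replicate 4. In the same libraries the median over all features lay within 0.014 of the group mean. The spread showed the same thing: 22 of 43 members varied more than 2-fold between the lowest and highest PRB oil library, against 6 of 43 in PRB with P4, 2 of 43 in PRA with P4 and 9 of 43 in PRA with oil. Of all features tested, 11.8%, 7.66%, 5.12% and 7.94% varied that much in PRB with P4, PRB with oil, PRA with P4 and PRA with oil. The labels give these 3 libraries no treatment of their own, and the cause was not tested.

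Leukocytes express many of these genes, so their markers were read beside the members. Of 23 leukocyte markers listed, 21 were in the table and 13 could be tested; among these S100a8, a neutrophil gene, was higher with P4 in both strains, Csf1r, a macrophage receptor, was lower with P4 in PRA, and the natural killer cell genes Nkg7 and Klrb1c were higher in PRB than in PRA with P4. The summed level of the 21 markers lay between 46.9 and 100.4 FPKM in PRB with P4, 55.9 and 64.7 FPKM in PRB with oil, 40.9 and 49.3 FPKM in PRA with P4, and 39.2 and 57.0 FPKM in PRA with oil. The highest sum belonged to PRB P4 replicate 3, where the macrophage gene Emr1 reached 18.4 FPKM against 1.88 to 2.64 FPKM in the other 3 libraries of that group. Of the libraries that stood apart for the members, PRB oil replicate 4 was the highest of its group for the leukocyte gene Ptprc (6.18 FPKM, against 4.30 to 4.88 FPKM in the other 3) and for the summed T cell (3.92 FPKM, against 2.48 to 3.07 FPKM), natural killer cell (19.2 FPKM, against 13.5 to 15.05 FPKM) and dendritic cell markers (5.71 FPKM, against 3.14 to 4.10 FPKM). In PRB oil replicate 4 the macrophage sum was the lowest of the group (27.2 FPKM, against 28.7 to 33.2 FPKM). Its B cell and neutrophil sums lay within the range of the other 3. PRA oil replicate 4 was the highest of its group for Ptprc (4.89 FPKM, against 3.31 to 4.04 FPKM) and the summed T cell markers (3.20 FPKM, against 2.09 to 2.14 FPKM). It was also the highest for the B cell (3.08 FPKM, against 1.48 to 2.58 FPKM) and dendritic cell sums (2.87 FPKM, against 2.20 to 2.60 FPKM). Its neutrophil sum was the lowest (0.482 FPKM, against 0.524 to 1.31 FPKM). The macrophage and natural killer cell sums there lay within the range of the others. Over all 21 markers, PRB oil replicate 4 had the highest sum of its group, and PRB oil replicate 3 and PRA oil replicate 4 did not. Of 15 markers of epithelium, stroma, smooth muscle and endothelium, P4 raised Krt8, Col1a1, Hoxa10, Hoxa11 and Des in both strains, lowered Myh11 in PRB, and lowered Krt18, Epcam and the endothelial gene Pecam1 in PRA. The part of these cells in the results was not tested, and in whole tissue fewer cells of a type and less RNA per cell cannot be told apart.

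**Figure D1:**
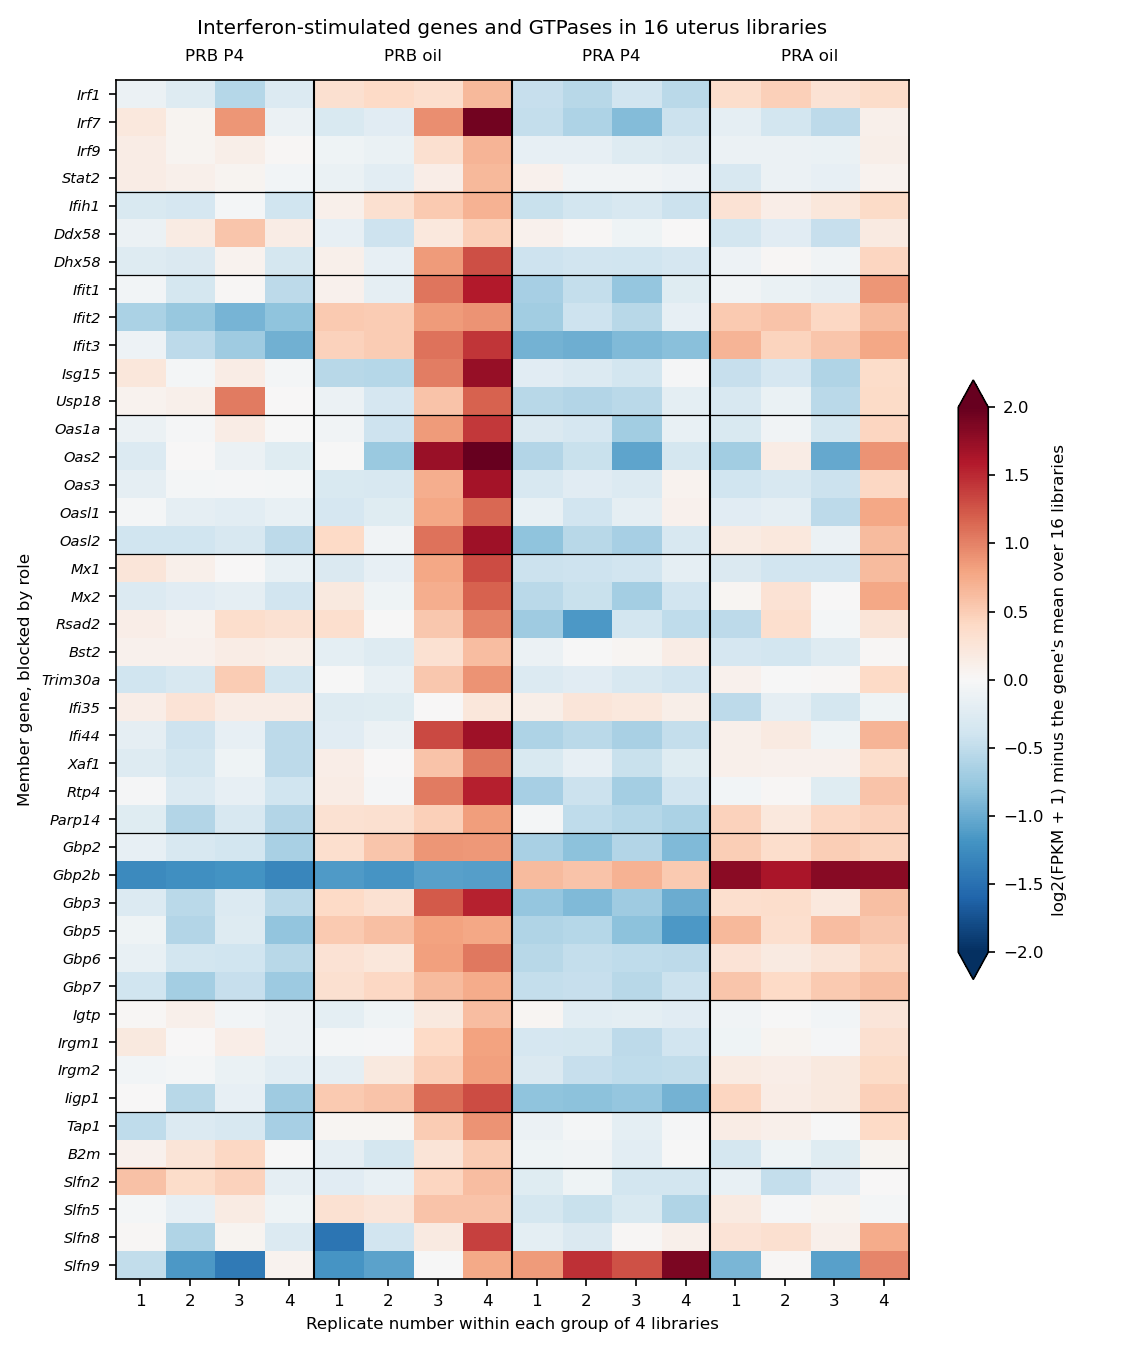
Level of each of the 43 members (rows, blocked by role) in each of the 16 libraries (columns, 4 per group), as log2(FPKM + 1) minus the gene's mean over the 16 libraries. Replicates 3 and 4 of PRB with oil and replicate 4 of PRA with oil are the darkest red columns, while the rows of Irf1, Ifih1, Ifit2, Ifit3, Parp14, Gbp2, Gbp3, Gbp5, Gbp6 and Gbp7 are red in all oil libraries and blue in all P4 libraries.

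Promoter sequences of these genes are shown because many, though not all, hold the DNA elements through which interferons act. RefSeq promoter windows on build GRCm38.p6 (250 bases before to 50 bases after the start site, C57BL/6J reference and not read from these mice) were found for 34 of the 43 members, in 40 windows. An ISRE, searched on both strands as GAAA, any 2 bases and GAAA again, was found in 25 of the 40 windows (62.5%), against 3.44% of all 32851 windows. A GAS, searched as TTCNNNGAA (the same on both strands), was found in 9 of 40 (22.5%), against 8.3% of all windows. Matches of the 2 motifs may overlap, and at least 1 of them was found in 28 windows (70%), against 11.29% of all windows. The 160 bases before the start site are printed for 6 members whose expression is described below, on the strand of the gene, with ISRE and GAS matches in capitals. Irf1, Gbp2 and Ifit3 fell with P4 in both strains, Isg15 and Bst2 were called in neither, and Gbp2b differed between the strains.
Irf1 promoter, chr11:53769854-53770013, plus strand: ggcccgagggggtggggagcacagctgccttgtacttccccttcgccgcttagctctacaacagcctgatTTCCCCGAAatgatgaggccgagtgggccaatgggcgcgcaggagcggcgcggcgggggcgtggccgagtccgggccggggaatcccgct
Gbp2 promoter, chr3:142620503-142620662, plus strand: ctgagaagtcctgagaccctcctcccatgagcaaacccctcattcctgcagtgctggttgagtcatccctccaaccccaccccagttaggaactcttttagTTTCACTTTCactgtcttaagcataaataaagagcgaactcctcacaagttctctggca
Ifit3 promoter, chr19:34583369-34583528, plus strand: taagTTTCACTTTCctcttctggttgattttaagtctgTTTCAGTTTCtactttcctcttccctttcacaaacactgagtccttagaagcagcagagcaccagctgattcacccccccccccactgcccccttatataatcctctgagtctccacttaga
Isg15 promoter, chr4:156200819-156200978, minus strand: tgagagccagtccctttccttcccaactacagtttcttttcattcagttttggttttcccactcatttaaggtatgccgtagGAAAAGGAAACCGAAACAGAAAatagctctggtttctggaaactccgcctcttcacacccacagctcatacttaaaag
Bst2 promoter, chr8:71537473-71537632, minus strand: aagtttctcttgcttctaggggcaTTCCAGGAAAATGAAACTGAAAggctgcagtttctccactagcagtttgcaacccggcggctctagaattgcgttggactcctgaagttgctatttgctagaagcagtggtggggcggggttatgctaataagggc
Gbp2b promoter, chr3:142594687-142594846, plus strand: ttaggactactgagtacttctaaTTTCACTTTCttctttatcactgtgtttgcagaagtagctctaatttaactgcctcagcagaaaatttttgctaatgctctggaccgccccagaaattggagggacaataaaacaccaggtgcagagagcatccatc
Irf1 holds a GAS and no ISRE in this stretch, Ifit3 holds a pair of separate ISREs, the 3 ISREs of Isg15 overlap, and in Bst2 a GAS overlaps the first of a pair of ISREs. Gbp2 and its neighbour Gbp2b hold the same ISRE match, TTTCACTTTC, nearer the start site in Gbp2. An ISRE was found in 8 of the 12 members with a window that were called lower in both strains, in 3 of 3 called lower in PRA alone, in 1 of 3 called lower in PRB alone and in 9 of the 13 called in neither. A GAS was found in 5, 0, 0 and 3 of the same sets of members. Of the 2 called higher in PRA, 1 held an ISRE and 1 held a GAS. These counts are a description, with no test.

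In PRB uteri, P4 lowered 21 of the 42 tested members and raised none, at an adjusted p under 0.05 over all features tested (limma, Benjamini-Hochberg). Across all features 32.9% were called lower and 36.2% higher in this comparison, and 21 of 42 is read against the first of these shares. The median member differed by -0.47 on the log2(FPKM + 1) scale, against 0 for all features. In PRA uteri 19 members were lower and 2 were higher, Ifi35 and Slfn9, against 33.2% of all features lower and 36.6% higher. The median member differed by -0.46 in PRA, against 0.01 for all features. All 4 P4 libraries lay below all 4 oil libraries for 17 members in PRB and 26 members in PRA, against 28.5% and 31.2% of all features. Without PRB oil replicates 3 and 4 (a choice made after seeing these values) 15 members were lower in PRB and 9 were higher, Irf9, Stat2, Ddx58, Isg15, Bst2, Ifi35, B2m, Slfn2 and Slfn8, against 30.1% of all features lower and 33.4% higher under that choice, and the median member differed by -0.11.

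Lower in both strains were 16 members, against 28.0% of all features: Irf1, Ifih1, Ifit2, Ifit3, Oasl2, Mx2, Xaf1, Parp14, Gbp2, Gbp3, Gbp5, Gbp6, Gbp7, Irgm2, Iigp1 and Slfn5. Of these, 12 were called lower in both strains under all 25 alternative settings, the exceptions being Oasl2, Mx2, Xaf1 and Irgm2. The same 12 had every P4 library below every oil library in both strains, and so did Oasl2, Mx2, Xaf1, Gbp2b and Tap1, 17 members in all. Separation thus does not set the 12 apart. Of all features, 28.5% were separate in this way in PRB and 31.2% in PRA, each strain taken alone. No share of all features is given for the 12 or for the 17 in both strains, so neither count is read as a result about the members. No member other than Gbp2b had a called difference of P4 responses between the strains, and that of Gbp2b depended on the pseudocount, as described with its family.

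**Figure D2:**
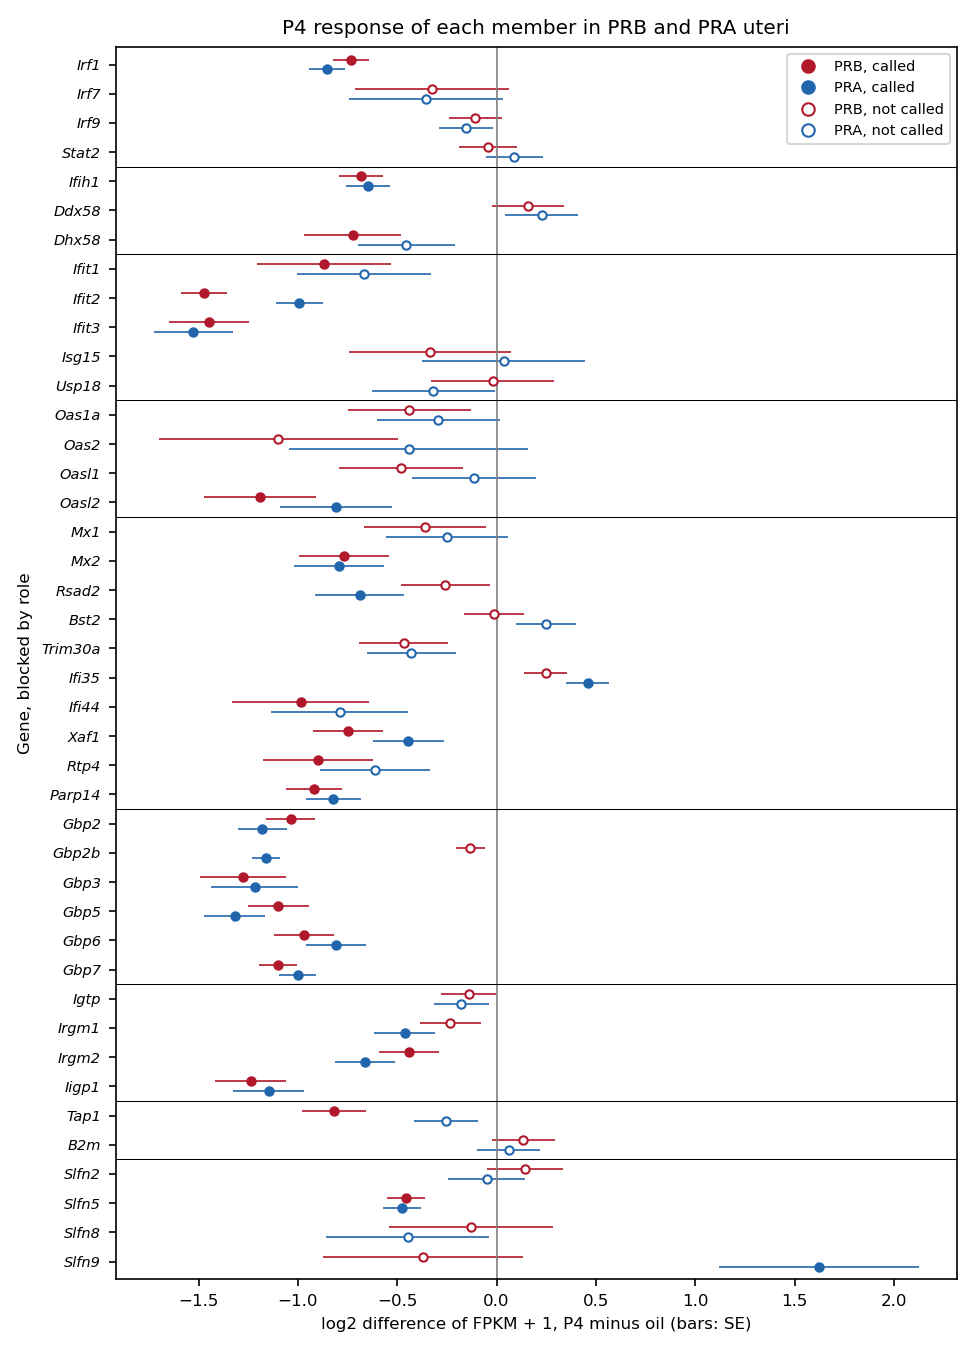
P4 response of each of the 42 tested members in PRB (red) and PRA (blue), as the difference of log2(FPKM + 1), P4 minus oil, with the standard error of the fit as bars and filled points where called. The Ifit2, Ifit3, Iigp1 and guanylate-binding protein points lie at -0.81 or below in both strains except Gbp2b in PRB, and Slfn9 in PRA lies farthest to the right, at 1.62.

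Of the 4 transcription factor genes among the members, 1 fell in each strain, Irf1, against 32.9% of all features in PRB and 33.2% in PRA. Irf1 encodes a factor that interferon gamma induces through the GAS shown above, and that drives many guanylate-binding protein genes. Its level was 29.6, 26.6, 21.5 and 26.4 FPKM in the 4 PRB uteri with P4, against 40.3, 43.01, 40.8 and 51.2 FPKM with oil. PRA uteri had 23.2, 21.6, 24.4 and 21.8 FPKM with P4, against 41.2, 45.3, 39.6 and 41.6 FPKM with oil. Within either strain the groups did not overlap, and the differences were -0.73 ± 0.09 in PRB (SE, adjusted p = 4.5e-06) and -0.86 ± 0.09 in PRA (adjusted p = 9.0e-07). Irf7, the amplifier of type I interferon production, had 16.03, 14.3, 26.04 and 12.5 FPKM in PRB with P4, against 10.8, 11.6, 27.03 and 55.1 FPKM with oil. The oil group spanned the P4 group and the difference of -0.32 ± 0.39 did not pass (adjusted p = 0.47). In PRA, Irf7 had 9.53, 8.55, 7.09 and 9.86 FPKM with P4, against 11.98, 10.4, 9.22 and 14.7 FPKM with oil, with overlap and a difference of -0.36 ± 0.39 (adjusted p = 0.43). Irf9 and Stat2, partners in the complex that binds the ISRE, differed by -0.11 ± 0.14 and -0.04 ± 0.14 in PRB and by -0.15 ± 0.14 and 0.09 ± 0.14 in PRA, none of which passed. Without PRB oil replicates 3 and 4 the PRB differences of Irf9 and Stat2 were 0.20 (adjusted p = 0.032) and 0.23 (adjusted p = 0.047), with the sign turned.

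The RNA sensors were divided. Ifih1, which encodes the sensor MDA5 of long double-stranded RNA, had 3.39, 3.33, 4.28 and 3.14 FPKM in PRB with P4, against 4.88, 5.805, 6.81 and 7.79 FPKM with oil. The PRA libraries had 3.01, 3.21, 3.34 and 3.05 FPKM with P4, against 5.63, 4.97, 5.35 and 6.07 FPKM with oil. P4 and oil groups were apart in either strain, with differences of -0.68 ± 0.11 in PRB (adjusted p = 6.5e-05) and -0.65 ± 0.11 in PRA (adjusted p = 0.0001). Ddx58, which encodes the sensor RIG-I, averaged 22.4 ± 4.62 FPKM in PRB with P4 and 20.3 ± 5.73 FPKM with oil, and 19.4 ± 1.003 FPKM in PRA with P4 and 16.7 ± 3.64 FPKM with oil (SD, n = 4 each). Neither difference passed (0.16 ± 0.18 and 0.23 ± 0.18). Dhx58, whose product LGP2 modulates the other two, was called lower in PRB (-0.72 ± 0.24, adjusted p = 0.016) and not in PRA (-0.46 ± 0.24, adjusted p = 0.11). The PRB call rested on 2 oil libraries: the adjusted p was 0.053 without PRB oil replicate 3, where the difference was -0.62, and 0.052 without replicate 4, where it was -0.47. In PRA, by contrast, all P4 libraries of Dhx58 lay below all oil libraries, whereas those of PRB overlapped. Dhx58 was called lower in PRA under 4 of the 25 alternatives, and the test between the strains' responses did not pass (-0.27).

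Of the genes acting on translation and on the ubiquitin-like protein ISG15, Ifit2 and Ifit3 gave the largest decreases. They lie next to each other on chromosome 19 (Ifit2 at 34550694 to 34576419 and Ifit3 at 34583531 to 34588731, plus strand, build mm10), and encode proteins that bind foreign RNA and block its translation. Ifit2 had 4.44, 3.99, 3.41 and 3.82 FPKM in PRB with P4, against 11.04, 10.99, 14.2 and 14.6 FPKM with oil. Levels in PRA were 4.18, 5.31, 4.71 and 6.52 FPKM with P4, against 11.1, 11.5, 10.2 and 12.1 FPKM with oil. The 2 treatments were wholly apart in either strain, with differences of -1.47 ± 0.12 in PRB (adjusted p = 4.9e-08) and -0.99 ± 0.12 in PRA (adjusted p = 2.8e-06); the difference between the strains' responses did not pass (-0.48 ± 0.17, adjusted p = 0.16). Ifit3 had 11.8, 8.54, 7.402 and 6.11 FPKM in PRB with P4, against 17.9, 18.7, 28.3 and 36.1 FPKM with oil. In PRA the gene had 6.17, 5.98, 6.51 and 6.67 FPKM with P4, against 21.1, 17.8, 19.2 and 22.6 FPKM with oil. Mean levels with P4 were 0.335 times those with oil in PRB and 0.314 times in PRA, with differences of -1.45 ± 0.20 (adjusted p = 1.4e-05) and -1.53 ± 0.20 (adjusted p = 8.0e-06). Of the 50-base stretches of Ifit3 transcripts, 51.2% also occur in Ifit3b, so reads of the 2 genes may have been shared between them. Ifit1, the third of this family, was called lower in PRB (-0.87 ± 0.34, adjusted p = 0.033) and not in PRA (-0.66 ± 0.34, adjusted p = 0.092). Yet all its P4 libraries lay below all its oil libraries in PRA, and they overlapped in PRB. Under 4 of the 25 alternatives Ifit1 was called lower in PRA, and the test between the strains' responses did not pass. The PRB call of Ifit1 was lost without PRB P4 replicate 2 (-0.83, adjusted p = 0.068), PRB P4 replicate 4 (-0.77, adjusted p = 0.082), PRB oil replicate 3 (-0.72, adjusted p = 0.095) or PRB oil replicate 4 (-0.55, adjusted p = 0.12).

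Isg15 and Usp18, the ubiquitin-like modifier and the protease that removes it, were not called in either strain. Isg15 had 22.4, 18.4, 21.03 and 18.4 FPKM in PRB with P4, against 12.6, 12.4, 39.5 and 65.8 FPKM with oil. PRA libraries held 15.98, 15.5, 14.5 and 18.7 FPKM with P4, against 13.4, 14.9, 12.1 and 24.8 FPKM with oil. The P4 values of PRB lay between the low and high pairs of oil libraries, and the differences were -0.34 ± 0.41 (adjusted p = 0.48) and 0.03 ± 0.41 in PRA (adjusted p = 0.95). Without PRB oil replicates 3 and 4, Isg15 in PRB with P4 stood 0.64 above oil (adjusted p = 0.017). Usp18 had 5.19, 5.32, 11.1 and 4.98 FPKM in PRB with P4, against 4.44, 3.68, 7.81 and 12.4 FPKM with oil. Its high P4 value belongs to replicate 3, the library with the highest sum of leukocyte markers, and the difference was -0.02 ± 0.31 (adjusted p = 0.96).

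**Figure D3:**
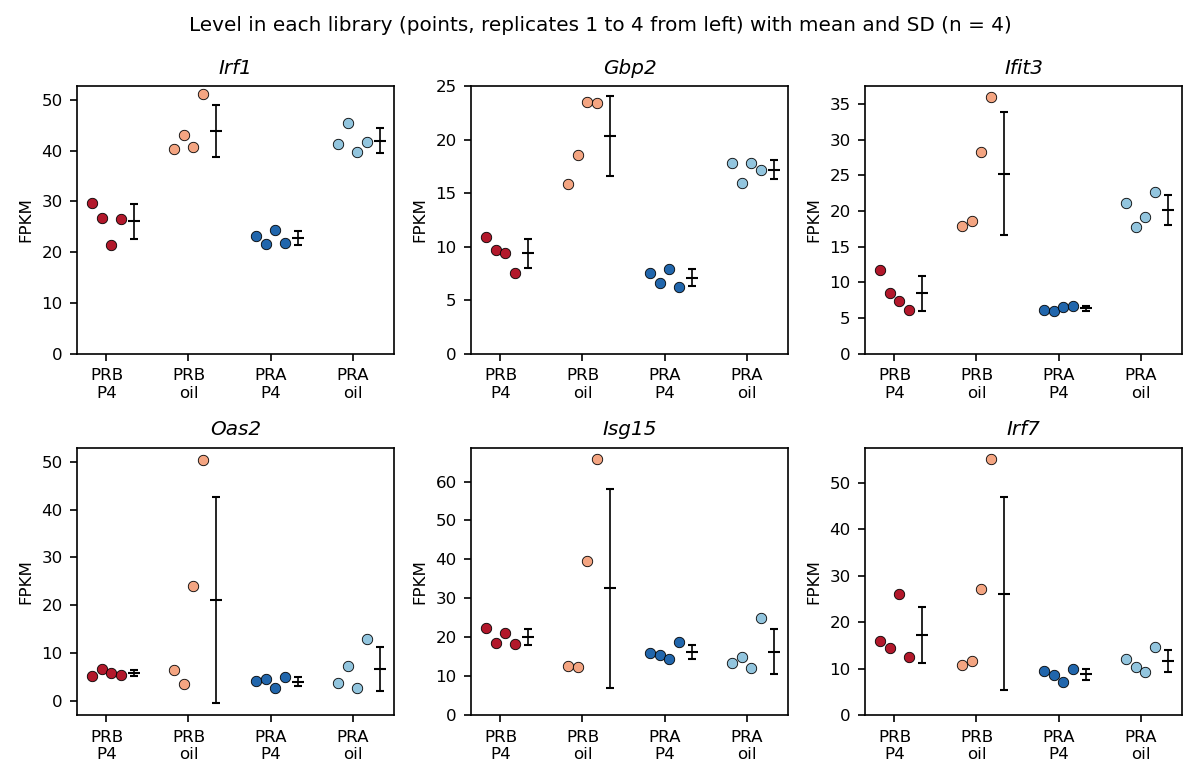
FPKM of 6 members in each library (points, replicates 1 to 4 from left) with the mean and SD of 4 libraries at the right of each group. Irf1, Gbp2 and Ifit3 show oil points wholly above P4 points in either strain, whereas for Oas2, Isg15 and Irf7 the PRB oil group runs from the level of the other groups to the highest point of the plot, 50.4, 65.8 and 55.1 FPKM in replicate 4.

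The oligoadenylate synthetases, which make the second messenger that activates RNase L, varied widely among oil libraries. Oas2 had 5.25, 6.54, 5.91 and 5.33 FPKM in PRB with P4, against 6.49, 3.51, 23.98 and 50.4 FPKM with oil. In PRA it had 4.03, 4.504, 2.62 and 4.87 FPKM with P4, against 3.62, 7.35, 2.71 and 13.00 FPKM with oil. Its 3 highest values lay in PRB oil replicates 4 and 3 and PRA oil replicate 4, and neither difference passed (-1.10 ± 0.60, adjusted p = 0.12; PRA -0.44 ± 0.60, adjusted p = 0.53). Without PRB oil replicate 2, which held the lowest value, the PRB difference was -1.66 and was called (adjusted p = 0.014), and without replicates 3 and 4 it was 0.21 (adjusted p = 0.68). Oas3, not tested, averaged 0.483 ± 0.0748 FPKM in PRB with P4, 1.51 ± 1.74 FPKM in PRB with oil, 0.376 ± 0.174 FPKM in PRA with P4 and 0.412 ± 0.436 FPKM in PRA with oil (SD, n = 4 each). Oas1a and Oasl1 were not called either. Oas1a shares 57.6% of its 50-base stretches with Oas1g, so their split is uncertain. Oasl2, an oligoadenylate synthetase-like gene, was called lower in both strains, with 14.5, 14.6, 15.5 and 13.2 FPKM in PRB with P4, against 25.9, 18.6, 42.5 and 65.6 FPKM with oil. PRA uteri had 10.7, 12.96, 11.96 and 15.4 FPKM with P4, against 21.9, 22.6, 17.8 and 30.9 FPKM with oil, and the differences were -1.19 ± 0.28 in PRB (adjusted p = 0.0016) and -0.81 ± 0.28 in PRA (adjusted p = 0.019). The PRA call of Oasl2 was lost without PRA P4 replicate 1 (-0.73, adjusted p = 0.051) or PRA oil replicate 4 (-0.67, adjusted p = 0.061), and the PRB difference was -0.58 without PRB oil replicates 3 and 4 (adjusted p = 0.017).

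Among the 10 other antiviral effectors, P4 lowered 5 in PRB and 4 in PRA, against 32.9% and 33.2% of all features, and raised 1 in PRA, against 36.6%. Parp14, an ADP-ribosyltransferase, had 9.998, 7.73, 9.41 and 7.73 FPKM in PRB with P4, against 15.1, 15.3, 17.2 and 22.4 FPKM with oil. The PRA libraries had 11.7, 8.23, 7.82 and 7.397 FPKM with P4, against 17.01, 14.1, 16.4 and 16.9 FPKM with oil. These groups did not overlap, and the differences were -0.92 ± 0.14 in PRB (adjusted p = 3.6e-05) and -0.82 ± 0.14 in PRA (adjusted p = 0.0001). Mx2, a dynamin-like GTPase gene annotated as a polymorphic pseudogene, differed by -0.77 ± 0.23 in PRB and -0.79 ± 0.23 in PRA (adjusted p = 0.0075 and 0.0061), at means of 1.32 ± 0.133 FPKM with P4 and 3.19 ± 1.64 FPKM with oil in PRB. Xaf1, a pro-apoptotic gene, fell by 0.75 in PRB (adjusted p = 0.0016) and by 0.44 in PRA (adjusted p = 0.037). The PRA call of Xaf1 was lost without any of 6 libraries: PRA P4 replicates 1 (-0.44, adjusted p = 0.065), 3 (-0.39, adjusted p = 0.091) and 4 (-0.46, adjusted p = 0.054), and PRA oil replicates 1 (-0.46, adjusted p = 0.054), 3 (-0.47, adjusted p = 0.052) and 4 (-0.38, adjusted p = 0.095). Rtp4 and Ifi44 were called lower in PRB (-0.90 ± 0.28 and -0.99 ± 0.34, adjusted p = 0.01 and 0.02). In PRA all P4 libraries lay below all oil libraries for both genes, and the differences just missed the threshold (-0.61 ± 0.28, adjusted p = 0.063, and -0.79 ± 0.34, adjusted p = 0.054). The tests between the strains' responses gave adjusted p = 0.77 and 0.88. The Ifi44 call was lost without PRB oil replicate 3 (-0.77, adjusted p = 0.070) or 4 (-0.64, adjusted p = 0.069), and with both left out the PRB differences were -0.28 for Rtp4 (adjusted p = 0.20), -0.32 for Mx2 (adjusted p = 0.15) and -0.37 for Xaf1 (adjusted p = 0.013).

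Rsad2, whose product viperin makes a chain-terminating nucleotide, was called lower in PRA and not in PRB. It had 8.55, 8.14, 10.1 and 9.74 FPKM in PRB with P4, against 10.00, 7.73, 11.7 and 16.4 FPKM with oil. Levels in PRA were 4.31, 2.94, 5.79 and 5.14 FPKM with P4, against 5.05, 10.1, 7.49 and 9.39 FPKM with oil. The groups overlapped in both strains, the PRA difference was -0.69 ± 0.22 (adjusted p = 0.013; -0.51 and not called with quantile normalization, adjusted p = 0.067) and the PRB difference -0.26 ± 0.22 (adjusted p = 0.32). Ifi35, a leucine-zipper protein of the innate response, was the effector that rose in PRA, with 16.6, 18.1, 17.6 and 16.5 FPKM with P4, against 10.2, 13.2, 11.6 and 14.3 FPKM with oil. Every P4 library lay above every oil library there (0.46 ± 0.11, adjusted p = 0.0014), while in PRB the means were 17.3 ± 0.826 FPKM with P4 and 14.5 ± 2.58 FPKM with oil, a difference of 0.25 ± 0.11 (adjusted p = 0.052). Bst2, which encodes the tether of budding virions tetherin, was among the most expressed members and was not called. Its level was 84.97, 84.2, 88.1 and 86.2 FPKM in PRB with P4, against 69.8, 66.7, 98.3 and 123 FPKM with oil. The P4 libraries of PRB agreed closely and lay between the oil libraries, and the difference was -0.01 ± 0.15 (adjusted p = 0.95); without oil replicates 3 and 4 it was 0.33 (adjusted p = 0.0097). Mx1 and Trim30a were not called in either strain.

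The guanylate-binding proteins, GTPases that coat vacuoles and bacteria, fell in 5 of 6 cases in PRB and 6 of 6 in PRA, against 32.9% and 33.2% of all features. Of these, 5 lie in a row on the plus strand of chromosome 3 (build mm10), Gbp5 at 142493978 to 142522344, Gbp7 at 142530342 to 142550149, Gbp3 at 142560026 to 142573209, Gbp2b at 142594847 to 142619179 and Gbp2 at 142620602 to 142638008. Gbp2 had 10.9, 9.69, 9.38 and 7.504 FPKM in PRB with P4, against 15.9, 18.6, 23.5 and 23.5 FPKM with oil. In PRA the gene had 7.56, 6.58, 7.91 and 6.23 FPKM with P4, against 17.8, 15.95, 17.9 and 17.2 FPKM with oil. The treatments were apart in both strains, and the differences were -1.04 ± 0.12 (adjusted p = 2.9e-06) in PRB and -1.18 ± 0.12 (adjusted p = 7.7e-07) in PRA. Gbp5, which in addition assists inflammasome assembly, had 3.52, 2.202, 3.02 and 1.78 FPKM in PRB with P4, against 5.897, 6.29, 7.37 and 7.14 FPKM with oil. PRA libraries held 2.14, 2.23, 1.72 and 1.16 FPKM with P4, against 6.47, 5.05, 6.32 and 5.96 FPKM with oil. Mean levels with P4 were 0.395 times those with oil in PRB and 0.305 times in PRA, with differences of -1.10 ± 0.15 (adjusted p = 1.5e-05) and -1.32 ± 0.15 (adjusted p = 2.4e-06). Gbp7 had 7.202, 5.71, 6.82 and 5.498 FPKM in PRB with P4, against 12.5, 13.4, 15.8 and 17.05 FPKM with oil. In PRA it had 6.76, 6.79, 6.37 and 6.98 FPKM with P4, against 14.8, 13.2, 14.5 and 15.4 FPKM with oil. The differences of Gbp7 were -1.10 ± 0.09 in PRB (adjusted p = 9.6e-08) and -1.001 ± 0.09 in PRA (adjusted p = 2.5e-07). Gbp3 differed by -1.28 ± 0.22 in PRB (adjusted p = 0.0001) and -1.22 ± 0.22 in PRA (adjusted p = 0.00016), and its 2 highest values, 22.6 and 28.3 FPKM, belonged to PRB oil replicates 3 and 4; without them its PRB difference was -0.76 (adjusted p = 0.00013). Gbp6, on chromosome 5, differed by -0.97 ± 0.15 and -0.81 ± 0.15, and 70.7% of its 50-base stretches also occur in another gene, so its level is uncertain; without the same 2 libraries its PRB difference was -0.63 (adjusted p = 0.00015).

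Gbp2b, the gene once called Gbp1 in mice, stood out from its neighbours. It had 0.0933, 0.131, 0.163 and 0.0722 FPKM in PRB with P4, against 0.214, 0.175, 0.255 and 0.241 FPKM with oil. PRA uteri had 3.12, 2.95, 3.31 and 2.83 FPKM with P4, against 8.33, 7.23, 8.37 and 8.301 FPKM with oil. The strains did not overlap under either treatment, and Gbp2b was the only member called between them with oil (-2.89 ± 0.07, adjusted p = 5.6e-12), where 0.117% of all features were called. With a pseudocount of 0.1 the strain difference was -4.67 with oil (adjusted p = 4.2e-10) and -3.89 with P4 (adjusted p = 5.5e-09), so its size depends on the pseudocount. P4 lowered it in PRA (-1.16 ± 0.07, adjusted p = 4.0e-09). In PRB the level was near the bottom of what was measured, all 4 P4 libraries lay below all 4 oil libraries, and the difference of -0.13 ± 0.07 did not pass (adjusted p = 0.11), whereas with a pseudocount of 0.1 it was -0.59 and was called (adjusted p = 0.0037). Gbp2b passed the filter on low values through PRA alone, and at its PRB levels the log2(FPKM + 1) scale leaves little room for a decrease: mean levels with P4 were 0.519 times those with oil in PRB and 0.379 times in PRA. On that scale the difference of its P4 responses was 1.03 ± 0.10 (PRB minus PRA, adjusted p = 0.00023), where 2.28% of all features were called, whereas with a pseudocount of 0.1 it was 0.78 and did not pass (adjusted p = 0.087). Of the other 8 tested genes within 500 kb of Gbp2b, none was called between the strains with oil and 1, the general transcription factor gene Gtf2b, was called with P4 (0.15, adjusted p = 0.025). Gbp2b shares 1.84% of its 50-base stretches with Gbp2, whose level did not differ between the strains by test (0.21 ± 0.12 with oil).

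**Figure D4:**
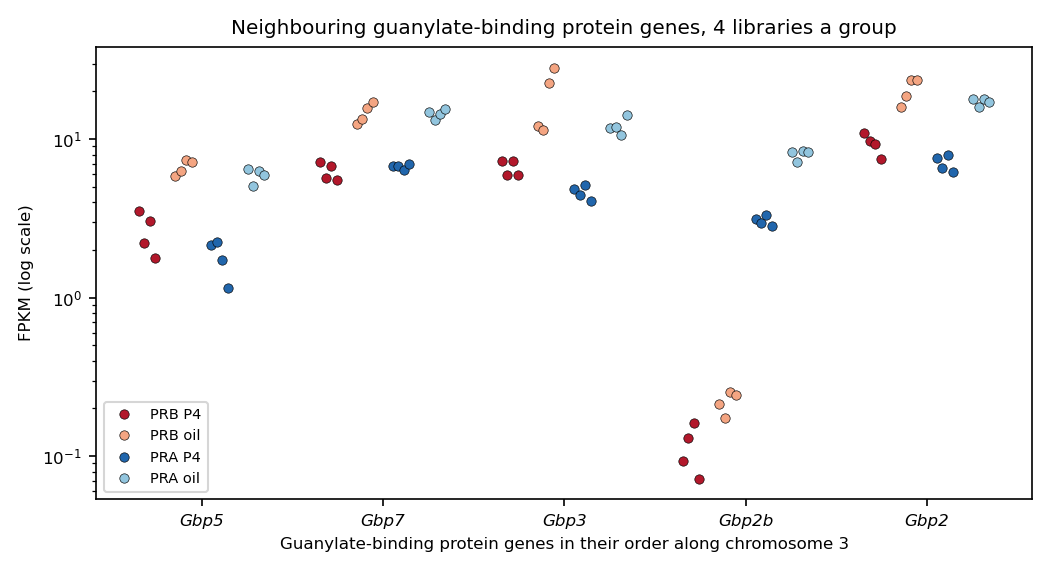
FPKM on a log axis of the 5 guanylate-binding protein genes in their order along chromosome 3, with 1 point per library and 4 libraries per group. Gbp5, Gbp7, Gbp3 and Gbp2 show oil points above P4 points at like levels in both strains, while Gbp2b lies at 0.255 FPKM or below in all PRB libraries and at 2.83 FPKM or above in all PRA libraries.

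The immunity-related GTPases act beside the guanylate-binding proteins on vacuoles. Iigp1, an effector GTPase of this family, had 13.7, 8.92, 12.1 and 7.97 FPKM in PRB with P4, against 20.1, 20.7, 30.8 and 35.2 FPKM with oil. The PRA libraries had 7.33, 7.31, 7.51 and 6.62 FPKM with P4, against 18.7, 15.2, 15.7 and 19.3 FPKM with oil. No P4 library reached the oil libraries of its strain, and the differences were -1.24 ± 0.18 in PRB (adjusted p = 2.1e-05) and -1.15 ± 0.18 in PRA (adjusted p = 4.4e-05). Irgm1 and Irgm2, which regulate the effector GTPases, were less affected: Irgm2 differed by -0.44 ± 0.15 in PRB (adjusted p = 0.017) and -0.66 ± 0.15 in PRA (adjusted p = 0.0012), and Irgm1 by -0.23 ± 0.15 (adjusted p = 0.19) and -0.46 ± 0.15 (adjusted p = 0.015). The PRB call of Irgm2 was lost without PRB oil replicate 4 (-0.27, adjusted p = 0.054). Igtp, the third regulator, was not called, and it shares exons with Irgm2 on chromosome 11, so reads of the 2 genes cannot be fully told apart.

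Of the antigen-presentation genes, Tap1, a subunit of the peptide transporter, had 13.4, 15.9, 15.4 and 11.99 FPKM in PRB with P4, against 20.2, 20.04, 28.3 and 37.3 FPKM with oil. Levels in PRA were 17.9, 18.98, 16.95 and 19.1 FPKM with P4, against 21.6, 20.9, 19.4 and 26.1 FPKM with oil. The groups were apart in both strains, but the difference passed in PRB only (-0.82 ± 0.16, adjusted p = 0.00038; PRA -0.25 ± 0.16, adjusted p = 0.17), and the test between the responses did not pass (-0.56 ± 0.23, adjusted p = 0.23). Without PRB oil replicates 3 and 4 the PRB difference of Tap1 was -0.48 (adjusted p = 0.0029). B2m, the light chain of class I molecules, was the most expressed member, with means of 417 ± 54.5 FPKM in PRB with P4, 389 ± 107 FPKM in PRB with oil, 339.9 ± 20.2 FPKM in PRA with P4 and 327 ± 39.7 FPKM in PRA with oil (SD, n = 4 each), and it was not called.

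The 4 Schlafen genes, lymphocyte and antiviral regulators clustered on chromosome 11, did not move together. Slfn5 had 10.7, 9.74, 12.5 and 10.3 FPKM in PRB with P4, against 13.8, 13.3, 16.9 and 16.9 FPKM with oil. In PRA the gene had 8.38, 7.81, 8.697 and 6.900 FPKM with P4, against 12.7, 10.9, 11.5 and 10.7 FPKM with oil. P4 lowered it in either strain without overlap (-0.46 ± 0.10, adjusted p = 0.0006, and -0.47 ± 0.10, adjusted p = 0.00043). Slfn9 went the other way in PRA, with 7.03, 11.2, 9.78 and 15.4 FPKM with P4, against 1.35, 3.52, 1.09 and 7.73 FPKM with oil. In PRB it had 2.16, 1.01, 0.662 and 3.68 FPKM with P4, against 0.968, 1.12, 3.42 and 6.53 FPKM with oil. The PRA groups overlapped in 1 oil library, replicate 4, and the rise passed the test (1.62 ± 0.50, adjusted p = 0.01); in PRB the difference did not pass (-0.37 ± 0.50, adjusted p = 0.53), and the test between the responses gave -1.99 ± 0.71 (adjusted p = 0.17). Slfn2 and Slfn8 were not called in either strain, and Slfn8 had the widest range of any member in PRB with oil, 40.9-fold between lowest and highest library. Slfn8 shares 14.6% and Slfn9 11.5% of their 50-base stretches with other genes, mostly a pseudogene of the family.

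Between the strains under P4, 4 of the 42 members were called, 2 higher and 2 lower in PRB, against 7.75% of all features higher and 8.29% lower. PRB was higher for Rsad2 (0.89 ± 0.22, adjusted p = 0.016) and Slfn5 (0.40 ± 0.10, adjusted p = 0.013), and lower for Gbp2b (-1.86 ± 0.07, adjusted p = 2.7e-09) and Slfn9 (-2.11 ± 0.50, adjusted p = 0.012). All 4 PRB libraries lay above all 4 PRA libraries for 14 members, against 9.23% of all features: Irf7, Irf9, Usp18, Oas1a, Oas2, Mx1, Mx2, Rsad2, Gbp3, Irgm1, Irgm2, Iigp1, B2m and Slfn5. The reverse, all PRB libraries below all PRA libraries, held for 3 members, Gbp2b, Tap1 and Slfn9, against 1686 of the 15408 features tested. The median member was 0.25 higher in PRB with P4, against -0.01 for all features. Of the markers of other cells, Pecam1, Nkg7 and Klrb1c were called higher in PRB with P4 as well, Pecam1 by 0.48 ± 0.12 (adjusted p = 0.014). The summed level of 3 endothelial markers lay between 95.8 and 113 FPKM in PRB with P4, against 73.4 and 96.3 FPKM in PRA with P4, and their part was not tested. With oil, 2 members had all PRB libraries above all PRA libraries, Iigp1 and Slfn5, against 1.25% of all features. For 1 member, Gbp2b, all lay below, against 330 of the 15408 features tested. The median member with oil was 0.26 higher in PRB. That median depended on single libraries: among the PRB oil libraries, omitting replicate 4 gave 0.10, omitting replicate 2 gave 0.41, and omitting both 3 and 4 gave -0.08. The call of Rsad2 was lost without PRA P4 replicate 2 (0.74, adjusted p = 0.053). The number of members called higher in PRB with P4 was 2 in the fit over all libraries and 8 in a fit of the P4 libraries alone, where 5.16% of all features were called higher. It was 6 when replicate 4 of PRB with P4 was left out, 6 when replicate 4 of PRB with oil was, 5 when replicate 1 of PRB with oil was, 3 when either PRB P4 replicate 3 or PRB oil replicate 2 was, and 1 when PRA P4 replicate 2 was, with 5.30% to 8.54% of all features called higher in these fits. Comparisons between strains and between treatments share libraries, so their values are not independent of each other.

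Upstream of the members, the interferon genes themselves were hardly detected. Of 21 interferon genes listed, 19 were in the table and none reached the mean of 1 FPKM; Ifne, the epithelial interferon epsilon of the reproductive tract, came nearest, with 0.485 ± 0.2497 FPKM in PRB with P4, 0.594 ± 0.441 FPKM in PRB with oil, 0.5702 ± 0.141 FPKM in PRA with P4 and 0.723 ± 0.536 FPKM in PRA with oil. The counts that follow are to be read against all features, of which 32.9% were lower and 36.2% higher in PRB and 33.2% lower and 36.6% higher in PRA. Of the 6 receptor chains, 4 were lower and 1 was higher with P4 in PRB, and 5 were lower and 1 was higher in PRA. Il10rb, a chain shared by interferon lambda and interleukin 10 receptors, differed by -0.56 ± 0.08 in PRB and -0.81 ± 0.08 in PRA, and Ifnlr1, the other chain of the interferon lambda receptor, by -0.58 ± 0.09 and -0.64 ± 0.09. Ifngr2, the signalling chain for interferon gamma, was the one that rose (0.39 ± 0.07 and 0.22 ± 0.07). Among 13 signal transducers and their regulators, 3 rose and 3 fell in PRB, and 3 rose and 5 fell in PRA. Those that rose in both strains were the kinase gene Jak1 (0.38 ± 0.04 in PRB and 0.59 ± 0.04 in PRA) and 2 genes of negative regulators, Ptpn2 (1.03 ± 0.07 and 1.16 ± 0.07), a phosphatase gene, and Socs1 (0.48 ± 0.15 and 0.84 ± 0.15), an inhibitor of Janus kinases. The kinase gene Tyk2 fell in both strains (-0.53 ± 0.10 and -0.62 ± 0.10).

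Of 10 genes of nucleic acid sensing, 5 were higher and 2 lower in PRB, and 4 were higher and 3 lower in PRA, where those shares are near the 36.6% and 33.2% of all features. Myd88, the adaptor of most Toll-like receptors, had 242, 247, 293 and 225 FPKM in PRB with P4, against 26.2, 27.3, 28.2 and 30.3 FPKM with oil. PRA libraries held 191, 164, 128 and 132 FPKM with P4, against 27.03, 27.1, 28.9 and 28.5 FPKM with oil. This was the largest difference of any pathway gene listed here, 3.12 ± 0.11 in PRB (adjusted p = 2.7e-11) and 2.40 ± 0.11 in PRA (adjusted p = 4.0e-10), opposite in direction to the members that fell; the strains' responses differed as well (0.72 ± 0.16, adjusted p = 0.029). Ticam1, the adaptor of TLR3, rose in both strains (1.41 ± 0.09 and 1.18 ± 0.09), as did Mb21d1, which encodes the DNA sensor cGAS (0.61 ± 0.14 and 1.11 ± 0.14). Tlr3 itself fell (-0.54 ± 0.12 and -0.37 ± 0.12), and so did the kinase gene Ikbke (-0.36 ± 0.10 and -0.71 ± 0.10).

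**Figure D5:**
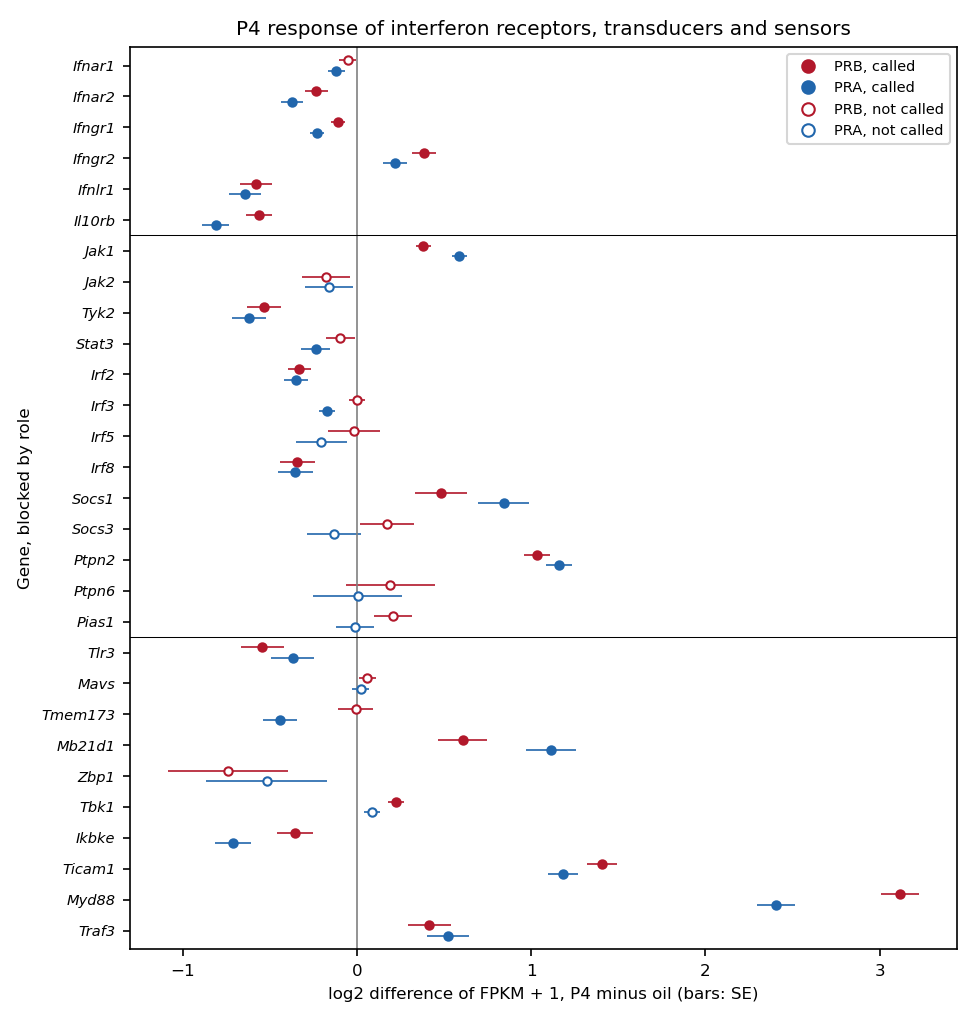
P4 response of interferon receptors (top block), signal transducers and regulators (middle) and nucleic acid sensors and adaptors (bottom) in PRB (red) and PRA (blue), as the difference of log2(FPKM + 1), P4 minus oil, with standard errors as bars and filled points where called. Myd88 lies farthest to the right, at 3.12 in PRB and 2.40 in PRA, and Il10rb in PRA farthest to the left, at -0.81.

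Beyond the 43 members, 28 other interferon-stimulated effectors were tested, with 17 lower and 2 higher in PRB, against 32.9% and 36.2% of all features, and 13 lower and 3 higher in PRA, against 33.2% and 36.6%. Sp100, a nuclear body component, differed by -1.40 ± 0.13 in PRB and -1.55 ± 0.13 in PRA, and Ifitm1, which blocks virus entry, by -1.37 ± 0.08 and -1.07 ± 0.08. Isg20, an exonuclease gene, rose by contrast to a mean of 83.7 ± 27.96 FPKM with P4, against 13.97 ± 2.28 FPKM with oil in PRB (2.46 ± 0.18), and to 59.1 ± 8.22 FPKM, against 12.8 ± 0.369 FPKM in PRA (2.11 ± 0.18). Of 9 further GTPases of the guanylate-binding and immunity-related families, 8 fell in PRB and 8 fell in PRA with none higher, including Gbp9 (-0.63 ± 0.11 and -0.81 ± 0.11) and Gbp10 (-0.84 ± 0.15 and -0.72 ± 0.15). Of 11 other genes of class I antigen presentation, 5 were lower and 2 were higher in PRB, and 3 were lower and 3 were higher in PRA. Tap2, the partner of Tap1, fell in both strains (-0.56 ± 0.06 and -0.47 ± 0.06), whereas the endoplasmic reticulum chaperone genes Calr (1.66 ± 0.11 and 1.72 ± 0.11) and Pdia3 (1.24 ± 0.09 and 1.27 ± 0.09) rose. Of 2 tested chemokine genes that interferons induce, 1 was lower in each strain, and the 1 other Schlafen gene tested was higher in PRB. Over the 80 tested genes of all these lists, 40 were lower and 14 higher in PRB, against 32.9% and 36.2% of all features, and 38 were lower and 14 higher in PRA, against 33.2% and 36.6%.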

How the data were processed

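RNA-seq of 16 whole mouse uteri was deposited as 1 table of FPKM values. Per the submitters' processing notes, TopHat2 2.0.4, Cufflinks 2.0.2, Cuffdiff and build mm10 were used, with no roles given. Neither the annotation nor strandedness is stated, and scaling across libraries is not given in the sources used here. FPKM are not counts, so the deposited values were compared as log2(FPKM + 1) with limma 3.58.1 (R 4.3.3), a scale that understates changes of weakly expressed genes. The 15408 of 31274 features with an average of 1 FPKM or more entered the tests. A model with a mean for each of 4 groups, fitted to all libraries with an intensity trend, gave 5 contrasts: the P4 response (P4 minus oil) of PRB and of PRA, the strains under P4 and under oil, and the difference of the P4 responses. Two-sided moderated p-values were adjusted across the tested features (Benjamini-Hochberg), and a gene was called under 0.05. The procedure was tried on simulated data with independent errors and few changed features. These data differ in both respects, so that trial does not vouch for the calls given here. Members and gene lists were chosen with earlier results of these data known. 1 gene of the pathway lists is not reported here. All members may be named; of each pathway list, up to 4 genes with the smallest adjusted p, or the most expressed where none was called, and a few more were named after their values were seen. Alternatives were another pseudocount (0.1), no filter, quantile normalization, median-ratio scaling, the contrast's libraries alone, no trend, a replicate block, and each library left out, with 2 more added after seeing the data. Depth was estimated from the spacing of low values at annotated transcript lengths, and a scale common to a library cannot be told from depth. Gene positions come from GENCODE on GRCm38 (mm10) and promoters from RefSeq. Log2 differences carry the standard error of the fit (SE), and levels the mean ± SD of 4 libraries; whether each library is 1 animal is not stated.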

Additional observations from a re-analysis of the deposited data

Results flagged for a closer look

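A library far from the other 3 of its group was found in 13 of 172 groups examined (43 members in 4 groups). The rule would flag about 1 in 20 of independent groups. Many members vary together in the same libraries, so the 172 are not independent and the count is not a test. No share of all features flagged by the rule is given. PRA oil replicate 4 gave 5 of them, each time as the highest library: Irf9 had 33.02 FPKM (27.5 to 28.0 in the other 3), Ifit1 14.7 FPKM (6.56 to 7.11), Oas3 1.06 FPKM (0.157 to 0.248), Mx1 3.09 FPKM (1.01 to 1.16) and Xaf1 53.2 FPKM (44.0 to 44.7). PRB P4 replicate 3, which had the highest sum of leukocyte markers, gave Usp18 at 11.1 FPKM (4.98 to 5.32) and Trim30a at 13.6 FPKM (6.74 to 7.22). PRA P4 replicate 1 gave Stat2 at 18.8 FPKM (16.4 to 16.7) and Igtp at 26.0 FPKM (21.4 to 21.9). Usp18 stood at 4.15 FPKM in PRA P4 replicate 4 (2.96 to 3.08), and Ifi35 at 18.5 FPKM in PRB P4 replicate 2 (16.7 to 16.97). Lowest of their groups were Oas3 in PRB P4 replicate 1, at 0.371 FPKM (0.511 to 0.530), and Gbp2b in PRA oil replicate 2, at 7.23 FPKM (8.30 to 8.37). PRB oil replicates 3 and 4 were high together, so this comparison with the nearest library does not single out either.

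The difference of the P4 responses of Gbp2b between the strains was 1.03 (PRB minus PRA) on the log2(FPKM + 1) scale and passed its test. The gene passed the filter on low values through PRA alone and lay at 0.255 FPKM or below in PRB, where that scale leaves little room for a decrease. With a pseudocount of 0.1 the difference was 0.78 and did not pass (adjusted p = 0.087).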

How the results depend on the processing

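Under 25 alternatives, 15 of the 21 members called for the P4 response in PRB and 18 of the 21 called in PRA kept their call throughout. A call in the same direction was gained under at least 1 by 9 members not called in PRB and 11 not called in PRA. Irf9, Stat2, Isg15, Bst2 and Slfn8, called in PRB only with the sign turned, are not among the 9. No share of all features is given for these counts of kept and gained calls. With single libraries left out, 17 to 24 members were called lower in PRB, against 30.9% to 32.9% of all features. In PRA 17 to 23 were called lower, against 31.2% to 34.4%. In the same fits 0 to 1 were called higher in PRB, against 34.6% to 36.5% of all features. Called higher in PRB than in PRA with P4 were 1 to 6, against 4.7% to 8.54%. The PRB calls of Dhx58, Ifit1 and Ifi44 were lost with quantile normalization and, with that of Irgm2, in a fit of the PRB libraries alone, and the PRA call of Xaf1 was lost without the filter. Members called higher in PRB with P4 against oil numbered 1 with median-ratio scaling, against 37.3% of all features. With PRB oil libraries 3 and 4 left out, 9 were called higher, and 9 again with PRA oil library 4 left out too, where 5 were called higher in PRA (against 33.4%, 33.4% and 36.2% of all features). Called higher in PRB than in PRA with P4 were 8 members with the contrast's libraries alone, and 11 and 13 under those 2 added settings, against 5.16%, 7.19% and 7.42% of all features. Under both, the PRB response turned sign and was called for Irf9 (0.20), Stat2 (0.23), Isg15 (0.64), Bst2 (0.33) and Slfn8 (0.72). With a pseudocount of 0.1, 0 members had a called difference of responses, against 1 in the main fit. Of all features, 0.785% were called lower and 1.42% higher for that difference with this pseudocount. The causes were not tested.

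Whether replicate numbers pair the samples is not settled by these values. Deviations of same-numbered libraries correlated at a median of 0.03 over 24 pairs (-0.23 to 0.31). Those of different numbers correlated at a median of -0.003 over 72 pairs (-0.27 to 0.34). Correlations above 0.1 were found in 6 of the 24 and 9 of the 72, and a median over all groups cannot exclude pairing of some. With the replicate block, 1 member was called higher in PRB and 1 had a called lower difference of responses, against 0 for each without it. Of all features, 36.3% were called higher in PRB with the block and 1.34% had a called lower difference of responses. No fragment counts were used here, so intervals from counting were not computed. Gbp2b in PRB, near the bottom of what was measured, rests on few fragments. Oas3 averaged under 1 FPKM over the 16 libraries, and how many fragments it rests on was not computed.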
